A study of Homo sapiens with 4 samples.

Results

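The metallothionein genes and their regulator were followed in JJ012, a human chondrosarcoma cell line, and 143B, a human osteosarcoma cell line. The set held 10 genes, taken by name from the 61806 genes of the deposited table. It comprised 8 metallothioneins (MT1A, MT1E, MT1F, MT1G, MT1H, MT1M, MT1X and MT2A), the transcription factor MTF1 and the zinc exporter SLC30A1. The genes were selected on measured values, the higher MT1E and the higher sum of the family in 143B after melatonin. That contrast is therefore given as a description, and so are the others, since each condition had 1 library. Both lines were grown in suspension, either untreated or with 1 mM melatonin for 72 h. This gave 4 libraries of poly(A)-selected RNA sequenced as paired ends. The melatonin columns of the table carry the suffix T, which was read as treated. Each line is a single cell line, so nothing here measures variation between tumors, and without replicates nothing measures variation between cultures.

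Metallothioneins are small cytoplasmic proteins rich in cysteine, whose thiol groups hold zinc and copper ions and can also react with oxidants. MTF1 is a zinc finger protein that senses free zinc, enters the nucleus and binds metal response elements in front of metallothionein genes. SLC30A1 exports zinc across the plasma membrane and is another known target of MTF1. In cartilage, zinc entry through the importer SLC39A8 and the activity of MTF1 have been linked to matrix-degrading enzymes.

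The 8 metallothioneins lie within 75.6 kb on chromosome 16, from 56608584 to 56684196 in the authors' hg38 positions. MT1G is on the minus strand and the other seven are on the plus strand. MTF1 (ENSG00000188786) and SLC30A1 (ENSG00000170385) lie apart from them on the minus strand of chromosome 1, at 37809574 to 37859592 and at 211571568 to 211579161. The coding sequences below, from GENCODE 29 on GRCh38, are those of the 4 metallothioneins that had counts in every library. They show how alike the genes are, and capitals mark the in-frame codons TGC and TGT, which encode cysteine.
MT2A: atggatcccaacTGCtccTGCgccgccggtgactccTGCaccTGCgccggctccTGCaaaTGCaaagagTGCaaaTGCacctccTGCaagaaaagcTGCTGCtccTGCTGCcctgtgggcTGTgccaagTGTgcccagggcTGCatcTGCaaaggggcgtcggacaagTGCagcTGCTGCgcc
MT1X: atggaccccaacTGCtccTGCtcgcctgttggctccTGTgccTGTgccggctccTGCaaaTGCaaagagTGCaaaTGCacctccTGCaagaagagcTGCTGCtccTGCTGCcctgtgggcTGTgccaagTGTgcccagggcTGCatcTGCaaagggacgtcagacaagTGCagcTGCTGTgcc
MT1E: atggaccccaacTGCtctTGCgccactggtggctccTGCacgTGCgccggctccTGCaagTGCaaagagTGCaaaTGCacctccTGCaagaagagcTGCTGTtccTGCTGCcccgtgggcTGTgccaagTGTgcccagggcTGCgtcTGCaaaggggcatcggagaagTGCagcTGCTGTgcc
MT1F: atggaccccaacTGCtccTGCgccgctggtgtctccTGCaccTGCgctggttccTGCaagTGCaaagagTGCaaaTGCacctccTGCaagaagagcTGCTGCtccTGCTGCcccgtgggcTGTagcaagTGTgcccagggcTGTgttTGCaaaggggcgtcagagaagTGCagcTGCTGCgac
Each of the 8 coding sequences held 20 such codons, among 61 codons in MT2A, MT1X, MT1E, MT1F, MT1A, MT1H and MT1M and among 62 in MT1G. Over the 28 pairs of members, identity of the coding sequence was between 88.5% and 94.5%, with a median of 91.8%. MTF1 had 21 cysteine codons among 753, and SLC30A1 had 18 among 507. Despite this likeness, no stretch of 150 bases, the length of a read, in the longest transcript of MT2A, MT1E, MT1F, MT1G, MT1H, MT1M or MT1A was found in a transcript of another gene. In MT1X, 4.75% of such stretches were shared with AC026461.1. The one gene of the table that overlaps MT1X on its strand, ENSG00000259827, had 0 counts in every library, as did ENSG00000235673, which overlaps MTF1 on the opposite strand. With stretches of 75 bases, MT1X shared 10.6% with AC026461.1, and MT1G shared 5.23% with MT1E, MT1H and MT1M. MT1H shared 2.89% with MT1G, and MT1E shared 1.68% with MT1G and MT1M. How reads that matched several genes were counted is not given in the sources used here, so some reads may have been assigned to a close relative.

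Promoters were taken from a set of RefSeq promoters (GRCh38.p14) that held 5 of the 10 members. MT1A, MT1E, MT1F, MT1G and MT1M were not in that set, so their promoters were not examined. The 250 bases before the start of transcription are shown, 5′ to 3′ on the strand of the gene, for the genes in which the metal response element core was found, since the core is the known contact of MTF1. Capitals mark TGCACNC or TGCGCNC on either strand, where N is any base.
MT2A (chr16:56608334-56608583, plus strand): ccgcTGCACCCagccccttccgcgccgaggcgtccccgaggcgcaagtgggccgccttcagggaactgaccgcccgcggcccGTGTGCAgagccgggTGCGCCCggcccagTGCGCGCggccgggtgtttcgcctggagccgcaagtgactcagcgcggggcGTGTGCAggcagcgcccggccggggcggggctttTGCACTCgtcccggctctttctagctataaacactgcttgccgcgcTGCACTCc
MT1X (chr16:56682220-56682469, plus strand): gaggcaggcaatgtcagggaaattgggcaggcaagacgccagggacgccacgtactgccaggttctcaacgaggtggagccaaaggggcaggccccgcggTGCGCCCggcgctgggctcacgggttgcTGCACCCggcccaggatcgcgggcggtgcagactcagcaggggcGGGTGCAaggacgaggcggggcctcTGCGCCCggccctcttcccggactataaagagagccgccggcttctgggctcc
MT1H (chr16:56669564-56669813, plus strand): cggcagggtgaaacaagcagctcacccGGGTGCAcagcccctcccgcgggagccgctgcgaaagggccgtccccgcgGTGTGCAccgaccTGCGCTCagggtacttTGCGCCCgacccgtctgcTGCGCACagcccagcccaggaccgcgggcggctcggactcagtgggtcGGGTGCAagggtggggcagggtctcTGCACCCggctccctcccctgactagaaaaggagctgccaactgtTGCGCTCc
SLC30A1 (chr1:211579162-211579411, minus strand): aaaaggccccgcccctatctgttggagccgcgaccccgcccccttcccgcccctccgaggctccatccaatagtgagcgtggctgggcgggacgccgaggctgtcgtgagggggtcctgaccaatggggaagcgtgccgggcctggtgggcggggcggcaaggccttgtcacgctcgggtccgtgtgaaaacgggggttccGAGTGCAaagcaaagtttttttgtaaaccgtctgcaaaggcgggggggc
There were 7 cores in the window of MT2A, 4 in MT1X, 8 in MT1H and 1 in SLC30A1, and 0 in that of MTF1. Of 35116 RefSeq windows of the same length, 24.8% held at least 1 core and 0.370% held at least 4. A motif of antioxidant response elements, TGACNNNGC on either strand, occurred 1 time each in MT2A, MT1X and SLC30A1, and 10.9% of all windows held it. These matches describe the letters of the windows and do not show that a factor was bound.

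Totals were between 15889564 and 19218343 counts per library, so that 3 counts, taken as the floor, corresponded to between 0.156 and 0.189 CPM, the count of a gene scaled to a common library total. Levels are given as FPKM, which are counts scaled by library total and exonic length. A ratio of CPM is given with its exact (Clopper-Pearson) 95% interval, which covers counting error only. A gene entered a comparison, and is called tested here, when either library reached 1 FPKM. It was called changed when the difference in log2(FPKM + 1) was at least 0.58, which understates changes of genes with low FPKM. Of the markers listed for each line, SOX9, a regulator of cartilage, had 15.06 FPKM in the JJ012 control and 15.48 FPKM in the 143B control, so it did not separate the lines, and the cartilage matrix genes COL2A1 and ACAN had at most 4 counts in JJ012. RUNX2, a regulator of bone, had 4.28 FPKM in the 143B control, and SP7 and IBSP had at most 1 count in 143B. The 8 osteoblast markers summed to 94.74 FPKM in the JJ012 control and 8.7 FPKM in the 143B control. The sum was higher in the chondrosarcoma line mainly through SPP1, a bone matrix protein with 79.39 and 0.4 FPKM. COL1A1 was also higher in the JJ012 control, at 10.92 and 0.49 FPKM. RUNX2 (3.02 and 4.28 FPKM), DLX5 (0 and 1.73) and BGLAP (0.81 and 1.44) were lower there, so the markers did not share a direction. Markers of leukocytes, epithelium and endothelium summed to between 13.92 and 40.45 FPKM per library, with 3 or 4 of 9 markers reaching 1 FPKM. In JJ012 the sum was 29.33 FPKM in the control and 13.92 FPKM with melatonin, and in 143B it was 40.45 and 26.72 FPKM. The epithelial marker KRT18 had 13.77 and 7.49 FPKM in JJ012 and made up most of the 143B sums, with 35.82 and 22.67 FPKM. The leukocyte marker CD3E had 9.73 and 3.28 FPKM in JJ012 (497 and 141 counts) and 0 counts in both 143B libraries. The part of other cells in the results was not tested.

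In 143B, the summed counts of the 8 metallothioneins were 4421 in the control and 12268 after melatonin. This was 278 and 715 CPM, a ratio of 2.57 with an interval of 2.48 to 2.66. In JJ012 the sums were 8470 and 5859 counts, or 441 and 363 CPM, a ratio of 0.823 with an interval of 0.796 to 0.851. Fewer cells of a type and less RNA per cell cannot be told apart in such bulk libraries. In CPM, the family had its highest level in melatonin-treated 143B and its lowest in the 143B control, with both JJ012 libraries in between. The lowest place of the 143B control was not kept relative to genes of similar exonic length, as given below. As a share of all counts, the family took 0.0441% and 0.0363% of the JJ012 control and melatonin libraries, and 0.0278% and 0.0715% of the 143B libraries. Counted as 1 gene, it would have ranked 636th by counts in the 143B control and 151st after melatonin, and 247th and 326th in JJ012.

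**Figure D1:**
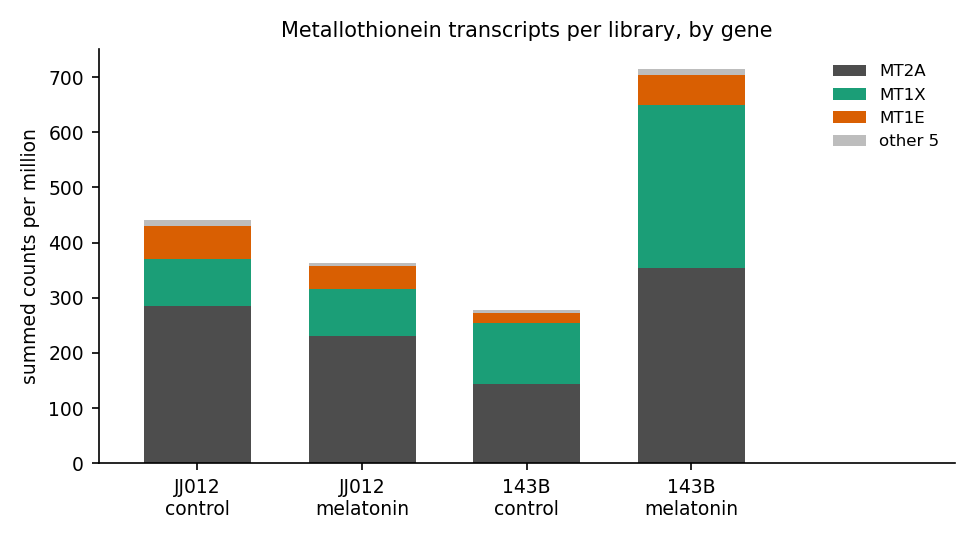
Summed CPM of the 8 metallothioneins in each library (1 library per bar, no error bars), split into MT2A, MT1X, MT1E and the other 5 genes. The bar of melatonin-treated 143B reaches 715 CPM, above the 278 CPM of its control and above both JJ012 bars at 441 and 363 CPM.

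MT2A, the metallothionein with the highest level in every library, had 311.29 FPKM in the JJ012 control and 251.3 FPKM with melatonin, and 156.65 and 386.71 FPKM in the 143B control and with melatonin. These rested on 5468, 3708, 2275 and 6067 counts. The melatonin library was higher in 143B and lower in JJ012. The ratio of CPM was 2.47 (2.35 to 2.59) in 143B and 0.807 (0.774 to 0.842) in JJ012. On the log2(FPKM + 1) scale the differences were 1.30 and -0.31, so MT2A passed the threshold in 143B alone, and a difference between the lines was not tested. Among all genes, MT2A ranked 165th by FPKM in the 143B control and 63rd with melatonin, and 61st and 55th in JJ012.
MT1X had 49.38 and 50.14 FPKM in JJ012 (1639 and 1398 counts) and 64.5 and 171 FPKM in 143B (1770 and 5069 counts). Both JJ012 libraries lay below both 143B libraries. In 143B the ratio of CPM was 2.65 (2.51 to 2.80). In JJ012 it was 1.02, and its interval of 0.945 to 1.09 held 1.
MT1E had 56.78 and 39.98 FPKM in JJ012 (1148 and 679 counts) and 16.87 and 52.67 FPKM in 143B (282 and 951 counts). The 143B control stood lowest, and the other three libraries lay between 39.98 and 56.78 FPKM. MT1E had the largest ratio of the family in 143B, 3.12 (2.73 to 3.58), and its log2 difference of 1.59 was the 45th highest of 14135 tested genes. The set was chosen on the higher MT1E in 143B, so nothing is read from this rank. In JJ012 the ratio of MT1E was 0.704 (0.639 to 0.775) and its log2 difference of -0.50 did not reach the threshold. In 143B the interval of MT1E lay above that of MT2A, while the interval of MT1X overlapped both.
MT1F stood below these 3 genes in every library, with 5.11 and 1.94 FPKM in JJ012 (182 and 58 counts) and 2.48 and 4.28 FPKM in 143B (73 and 136 counts). It was called lower in JJ012, with a log2 difference of -1.06 and a ratio of 0.379 (0.277 to 0.512). In 143B it was called higher, with a log2 difference of 0.60, which fell short of the threshold once centred on the median gene, and a ratio of 1.72 (1.29 to 2.32).

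**Figure D2:**
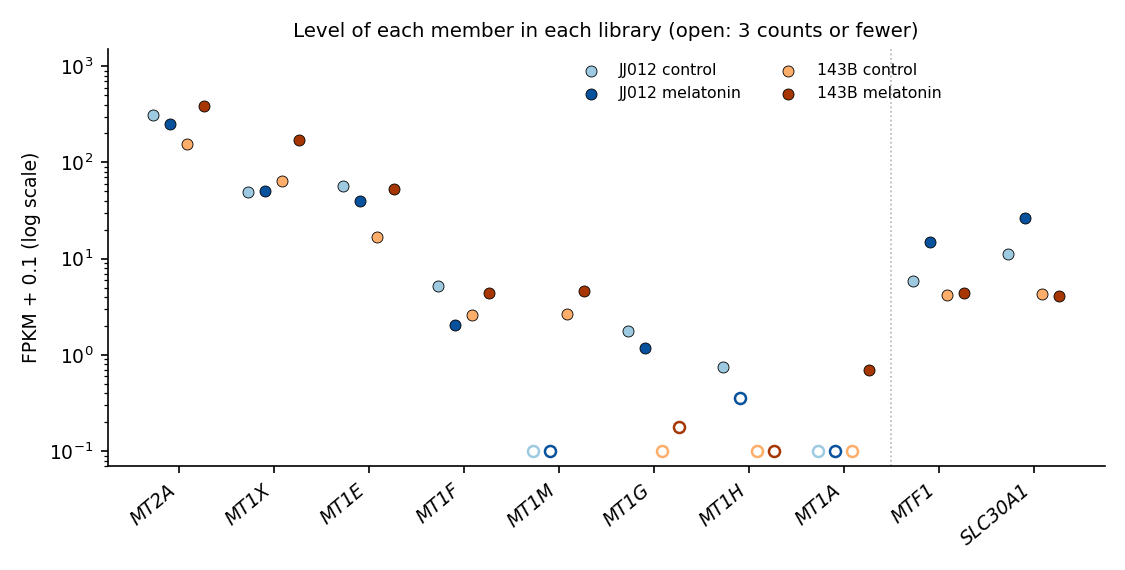
Level of each of the 10 genes in each of the 4 libraries, as FPKM + 0.1 on a log scale, with 1 point per library and open points for 3 counts or fewer. MT2A, MT1X and MT1E stand above the other metallothioneins in every library, and MTF1 and SLC30A1 are highest in melatonin-treated JJ012, at 14.83 and 26.2 FPKM.

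The remaining metallothioneins differed between the lines in whether they were detected at all. MT1M had 21 and 40 counts in the 143B control and melatonin libraries, which is 2.59 and 4.56 FPKM, and 0 counts in both JJ012 libraries. It was called higher in 143B after melatonin, at a log2 difference of 0.63, with a ratio of 1.76 whose interval reached down to 1.02, and was not called with CPM in place of FPKM. In the controls, MT1M was 8.47-fold higher in 143B than in JJ012 when the 0 counts of JJ012 were set to the floor of 3. Its counting interval began at 6.30-fold higher. MT1G went the other way, with 24 and 13 counts in the JJ012 control and melatonin libraries and 0 and 1 in the 143B libraries. In the controls, MT1G was 6.61-fold lower in 143B than in JJ012 when the 0 counts of 143B were set to the floor of 3. Its counting interval began at 4.98-fold lower. Its ratio after melatonin in JJ012, 0.645, had an interval of 0.302 to 1.32. MT1H had 9 and 3 counts in JJ012, a ratio of 0.397 with an interval of 0.0691 to 1.59 that held 1, and 0 counts in both 143B libraries. MT1A had 4 counts in melatonin-treated 143B and 0 counts in the other three libraries, which was not distinguishable from its control at this depth.

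MTF1, the activator of the family, had 5.77 FPKM in the JJ012 control and 14.83 FPKM with melatonin, and 4.06 and 4.35 FPKM in 143B (886, 1913, 516 and 597 counts). Melatonin-treated JJ012 stood apart, and the other three libraries lay between 4.06 and 5.77 FPKM. The ratio of CPM was 2.57 (2.37 to 2.79) in JJ012 and 1.07 (0.95 to 1.21) in 143B. SLC30A1, the zinc exporter, was also highest in melatonin-treated JJ012, followed by the JJ012 control, with 11.08 and 26.2 FPKM in JJ012 and 4.24 and 4 FPKM in 143B (1255, 2493, 397 and 405 counts). Its ratio was 2.36 (2.21 to 2.53) in JJ012 and 0.944 (0.820 to 1.09) in 143B. Both genes were called higher in JJ012, at log2 differences of 1.23 and 1.17, while neither was called in 143B, at 0.08 and -0.07. The line with higher MTF1 and SLC30A1 RNA after melatonin than in its control was not the line with higher metallothionein RNA. The activity of the MTF1 protein was not measured.
Counted over all 10 genes, 7 were tested in 143B, and 5 of them, MT2A, MT1X, MT1E, MT1F and MT1M, were called higher and 0 lower. Over all genes tested in 143B, 6.09% were called higher and 12.7% were called in either direction; the choice of genes used this contrast, so nothing is read from the count. In JJ012, 7 genes were tested, 2 were called higher (MTF1 and SLC30A1) and 1 lower (MT1F). There 38.2% of all tested genes were called, so that 3 of 7 (42.9%) was close to the share over all genes. The median log2 difference of the 5 tested metallothioneins was 1.30 in 143B and -0.36 in JJ012, against 0.03 and 0.01 over all tested genes. The genes were chosen on the 143B contrast, so nothing is read from the distance of the 143B median to that of all genes. The 5 genes were not the same in both lines, since MT1M was tested in 143B alone and MT1G in JJ012 alone, and the JJ012 median is the value of MT1G, which had 24 and 13 counts.

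**Figure D3:**
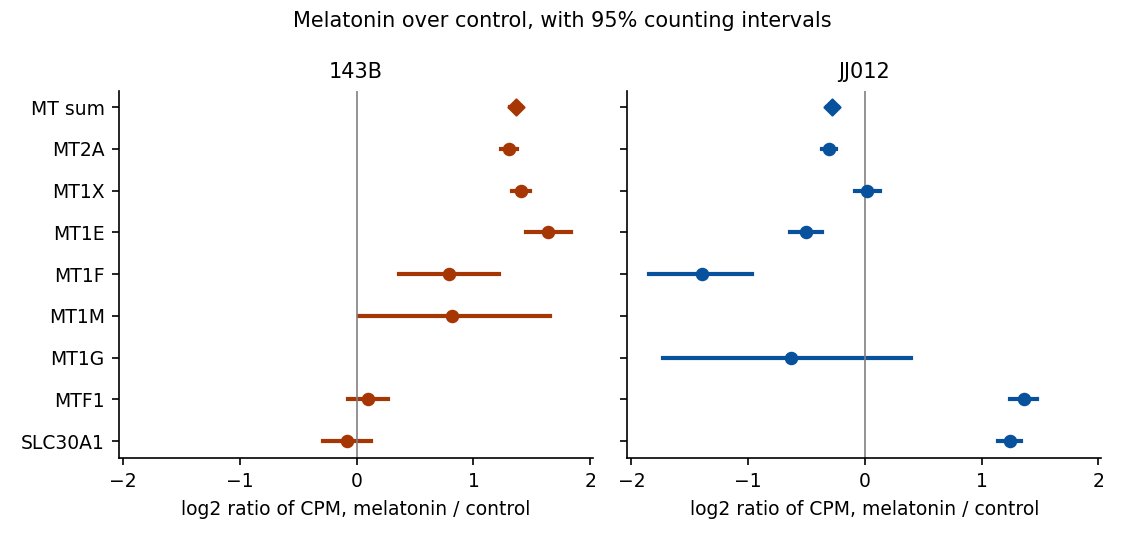
Log2 ratio of CPM, melatonin over control, for the sum of the 8 metallothioneins (diamond) and for each gene with more than 3 counts in both libraries, in 143B (left) and JJ012 (right). Lines are exact 95% counting intervals, and in 143B the metallothioneins lie to the right of 0 while the intervals of MTF1 and SLC30A1 hold 0, whereas in JJ012 MTF1 and SLC30A1 lie to the right at 1.36 and 1.24.

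In JJ012 the change of a gene moved with its exonic length, and metallothionein transcripts are short. Among 1397 tested genes of JJ012 with an exonic length between 555 and 1249 bases, within 1.5 times the median of the metallothioneins, the median log2 difference after melatonin was -0.30. The metallothionein sum stood at -0.28 as a log2 ratio of CPM. Once this median, on the log2(FPKM + 1) scale, is taken off, it is 0.02, which is within counting error of no difference. In 143B the median of such genes was -0.03, against 1.36 for the sum, on which the genes were chosen. For genes as long as MTF1 and SLC30A1, the medians in JJ012 were 0.20 and 0.10, below the values of both genes. The window of 555 to 1249 bases leaves out MT1X (1727 bases), MT1F (1852), MT1M (511) and MT1A (396), although the sum includes them. How far the length trend shaped the JJ012 values was not tested further.

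The make-up of the family differed between the lines more than between treatments. MT2A gave 64.6% of the family's counts in the JJ012 control and 63.3% with melatonin, but 51.5% and 49.5% in 143B. MT1X gave 19.4% (interval 18.5% to 20.2%) and 23.9% (22.8% to 24.97%) in JJ012, and 40.04% (38.6% to 41.5%) and 41.3% (40.4% to 42.2%) in 143B. MT1E gave 13.6% and 11.6% in JJ012 and 6.38% and 7.75% in 143B. In 143B, the intervals of MT2A and of MT1X before and after melatonin overlapped, while that of MT1E was higher after melatonin, at 7.28% to 8.24% against 5.68% to 7.14%. In JJ012 the intervals of MT2A overlapped, while MT1X took a larger and MT1E a smaller share. Per length, MT2A stood above MT1X by 6.30-fold and 5.01-fold in the JJ012 control and melatonin libraries, and by 2.43-fold and 2.26-fold in those of 143B.
The order of the levels in FPKM was MT2A, MT1E, MT1X, SLC30A1, MTF1, MT1F, MT1G and MT1H in the JJ012 control. The neighbours MTF1 and MT1F, and MT1G and MT1H, overlapped in their counting intervals. With melatonin, MT1X stood above MT1E in JJ012, and MTF1 no longer overlapped MT1F. In the 143B control the order was MT2A, MT1X, MT1E, SLC30A1, MTF1, MT1M and MT1F, in which each neighbouring pair from SLC30A1 onward overlapped. In melatonin-treated 143B, MT2A, MT1X and MT1E were again separate, followed by MT1M, MTF1, MT1F and SLC30A1 with overlapping intervals.

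Before treatment, the metallothionein sum was lower in 143B than in JJ012, at 278 against 441 CPM, a ratio of 0.631 (0.609 to 0.655). This did not hold for every gene. MT1E, MT2A and MT1F were lower in the 143B control, with ratios of 0.297 (0.260 to 0.339), 0.503 (0.479 to 0.529) and 0.485 (0.365 to 0.640), while MT1X was higher, with a ratio of 1.31 (1.22 to 1.40), short of the threshold for a call. SLC30A1 was also lower in the 143B control, with a ratio of 0.383 (0.341 to 0.429), and MTF1 had a ratio of 0.704 (0.631 to 0.786), also short of it. With TMM or DESeq2 size factors, the ratios of MT1E, MT2A, MT1X, SLC30A1 and MTF1 moved outside these counting intervals, each keeping its direction. Of the 8 members tested between the controls, 5 were called lower in 143B and 1 higher. Over all genes, 68.7% were called in this comparison, 41.3% lower and 27.4% higher, and the median of genes of similar exonic length was -0.70. Less that median, which is on the log2(FPKM + 1) scale, the log2 ratio of CPM of the sum was 0.04. That is within counting error of no difference, so the lower sum in 143B depended on the reference.

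Other metallothionein genes and pseudogenes were examined to see whether the members covered the family. Of 13 listed, 2 were tested in each line. MT1L, which GENCODE 29 annotates as a transcribed pseudogene between MT2A and MT1E, had 391 and 807 counts in the 143B libraries, which is 51.48 and 98.36 FPKM. In JJ012 it had 1 count in the control and 0 with melatonin. In 143B its level was above that of MT1E and below that of MT1X, and its ratio after melatonin was 1.91 (1.69 to 2.16). Between the controls, the ratio of MT1L rested on 391 counts against 1, so its interval ran from 84.4 to 18726. The processed pseudogene MT2P1 on chromosome 4 had 4 and 22 counts in 143B and 14 and 3 in JJ012, and was called higher in 143B and lower in JJ012 on these low counts. MT1HL1 had 8 and 3 counts in JJ012 and 0 in 143B. MT3 and MT4, known from brain and from squamous epithelium, had 0 counts in every library. With all 13 added, the sum in 143B was 4817 and 13098 counts, a ratio of 2.52.
Along the cluster, the 143B signal came from MT2A, MT1L, MT1E, MT1M, MT1F and MT1X, and the JJ012 signal from MT2A, MT1E, MT1F, MT1G, MT1H and MT1X. MT1L and MT1M, which had 0 or 1 count in JJ012, flank MT1E, which had 679 counts or more there. BBS2 and NUP93, which lie outside the cluster on either side, were not called after melatonin in either line. The unnamed gene ENSG00000260823, on the minus strand beside MT2A, had 11 and 33 counts in 143B, a log2 difference of 1.06. BBS2, a gene of the cilium, had 2.09 and 2.54 FPKM in 143B and 4.33 and 5.35 FPKM in JJ012. NUP93, a nuclear pore gene, had 6.72 and 6.73 FPKM in 143B and 2.01 and 2.86 FPKM in JJ012.

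**Figure D4:**
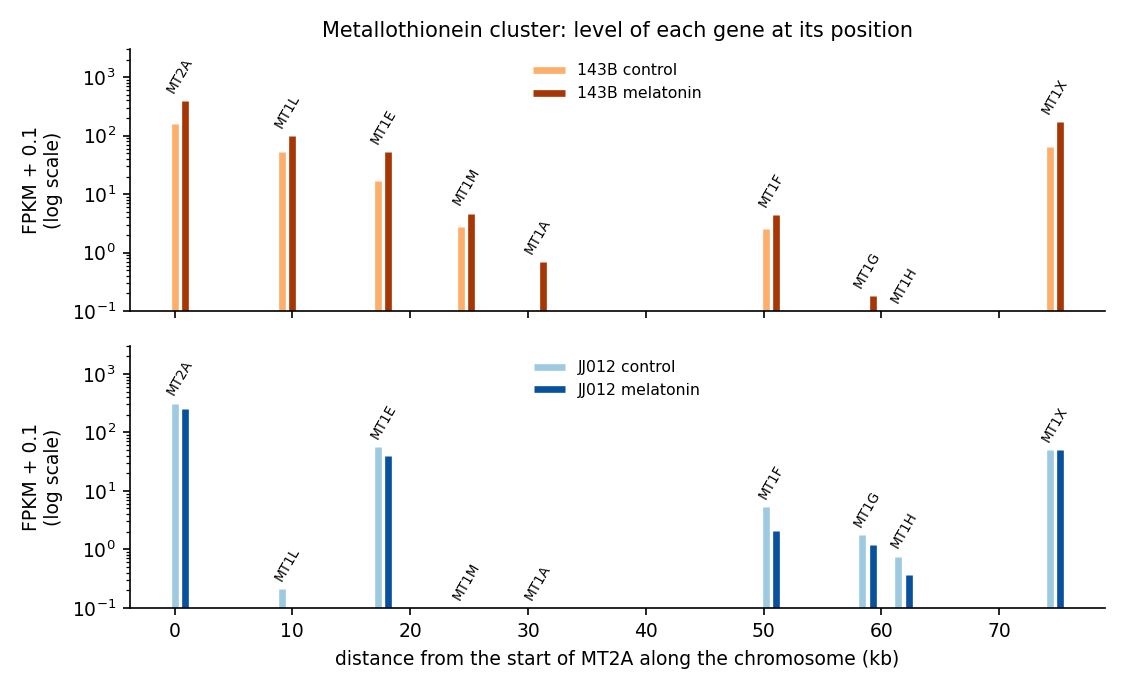
Level of each metallothionein gene of the cluster at its distance in kb from the start of MT2A, as FPKM + 0.1 on a log scale, so that a gene at 0 FPKM has no visible line; top 143B, bottom JJ012, with 1 control and 1 melatonin library each. MT1L reaches 98.36 FPKM in 143B and is near 0 in JJ012, and MT1G and MT1H show the reverse at low levels.

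The transporters that move zinc were examined beside SLC30A1. Of the other zinc exporters, 5 were tested in 143B with 0 called, and 6 in JJ012 with SLC30A4 called higher and SLC30A3 lower. SLC30A4, an exporter of endosomal membranes, had 1.8 and 3.64 FPKM in JJ012, and SLC30A3, a vesicle transporter, had 4.17 and 2.28 FPKM. In 143B the largest differences were those of SLC30A9 and SLC30A5, both 0.21. Of the zinc importers, 9 were tested in 143B with 0 called, and 11 in JJ012 with SLC39A14 alone called higher. SLC39A14, a broad importer of zinc, iron and manganese, had 41.21 and 68.72 FPKM in JJ012 and 11.38 and 12.38 FPKM in 143B. SLC39A10, which MTF1 is known to repress, had 8.53 and 6.12 FPKM in 143B, a log2 difference of -0.42, and 3.08 and 2.95 FPKM in JJ012. SLC39A8 had 3.66 and 2.61 FPKM in 143B, a log2 difference of -0.37, and 3.17 and 3.24 FPKM in JJ012. SLC39A7, which releases zinc from the endoplasmic reticulum, had 55.22 and 39.65 FPKM in JJ012, a log2 difference of -0.47. The median log2 difference was 0.18 for exporters and -0.10 for importers in 143B, and 0.20 and 0.02 in JJ012. SLC39A3, another zinc importer, had 20 and 71 counts in 143B, a ratio of 3.29 (1.98 to 5.70), but at 0.93 FPKM after melatonin it stayed below the level needed for testing. With 12.7% of all genes called in 143B and 38.2% in JJ012, nothing is read from the small numbers of transporters called.

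Copper is the other metal held by metallothioneins. Of 10 tested copper genes in 143B, 0 were called, with the largest differences in CCS (0.48), the copper chaperone of SOD1, and COX17 (-0.35), a mitochondrial copper chaperone. In JJ012, 4 of 9 were called lower and 0 higher, where 18.6% of all genes were called lower. SOD1, the cytosolic superoxide dismutase, had 71.13 and 34.03 FPKM, and COMMD1, a regulator of copper export, had 6.26 and 2.45 FPKM. ATOX1 and CCS, with log2 differences of -1.01 and -0.92, were the others. The median of the list was -0.46 in JJ012 and 0.06 in 143B.
Genes that metals and oxidants are known to induce together with metallothioneins were not called higher in 143B. There 3 of 12 tested genes were called lower and 0 higher, with a median of -0.39, where 6.65% of all genes were called lower. HSPA1A, an inducible heat shock protein with a close paralog, had 4.4 and 1.07 FPKM, HSPA1B had 7.18 and 4.42 FPKM, and HMOX1, the inducible heme oxygenase, had 14.79 and 8.44 FPKM. Differences over the list ran from -1.38 to 0.48 in 143B. The highest was that of TXNRD1, a thioredoxin reductase, with 26.64 and 37.53 FPKM. SLC40A1, also listed, had 22 and 55 counts in 143B, a ratio of 2.31 (1.39 to 3.99). At 0.76 FPKM after melatonin it stayed below the level needed for testing. In JJ012, 5 of 12 were called higher and 1 lower, with a median of 0.42, where 19.6% of all genes were called higher. SLC7A11, the cystine transporter, had 1.13 and 10.35 FPKM, and TXNRD1 had 35.52 and 79.47 FPKM. OSGIN1, SRXN1 and GCLM were the other genes called higher, and NQO1 was called lower. HMOX1 had 8.21 and 7.87 FPKM in JJ012.
Glucocorticoids are known to induce MT2A, so genes of that response were listed. In 143B, 0 of 8 were called, with a median of -0.03, and DUSP1 and PER1 had the largest differences, -0.39 and -0.32. In JJ012, 3 of 10 were called higher, NR3C1, KLF9 and PER1, with a median of 0.15, where 19.6% of all genes were called higher. NR3C1, the glucocorticoid receptor itself, had 11.84 and 24.31 FPKM. ERRFI1, the one gene of this list above 100 FPKM, had 126.18 and 125.13 FPKM in JJ012 and 700.61 and 754.24 FPKM in 143B.

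**Figure D5:**
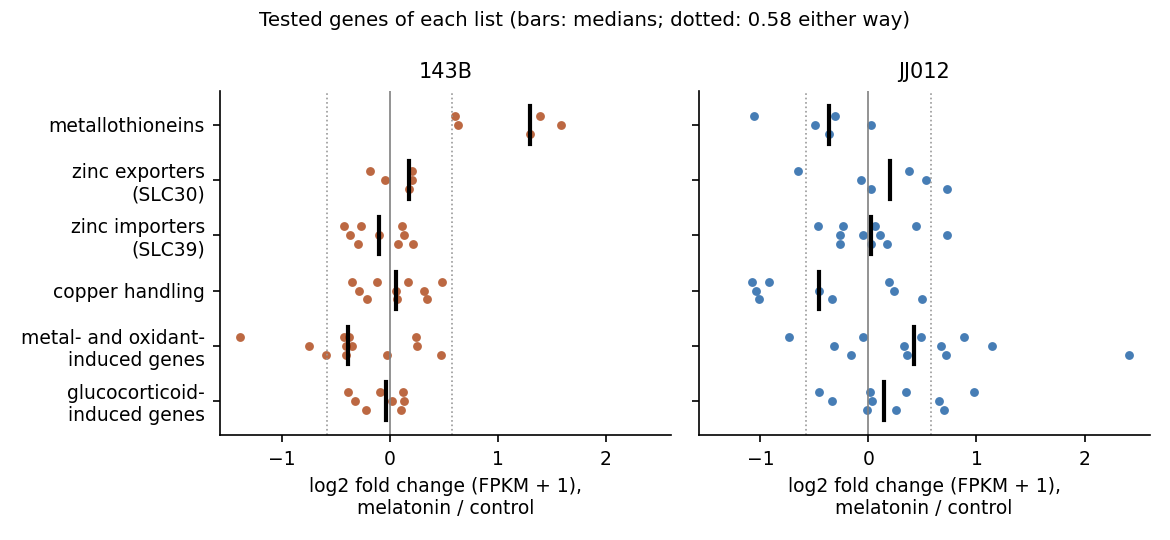
Log2 difference in (FPKM + 1), melatonin over control, of the tested genes of the metallothioneins and 5 other lists in 143B (left) and JJ012 (right), with 1 point per gene, black bars for medians and dotted lines at 0.58 either way. The metallothioneins, with MT1M tested in 143B alone and MT1G in JJ012 alone, have a median of 1.30 in 143B and -0.36 in JJ012, and the metal- and oxidant-induced genes -0.39 and 0.42.

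The pattern of the summed family over the 4 libraries was set beside that of 9668 genes with at least 5 FPKM in a library. Likeness was the root mean square difference of centred log2(FPKM + 1). The closest were ENSG00000262089, DGKQ, ENSG00000280120, LTB4R and a Y RNA gene, at 0.23 to 0.24. The Y RNA gene rested on 10 and 7 counts in JJ012 and 4 and 9 in 143B. ENSG00000262089 rested on 76 and 49 counts in JJ012 and 35 and 69 in 143B, so counting error limits both. DGKQ, a diacylglycerol kinase, had 6.98 and 4.91 FPKM in JJ012 and 3.88 and 7.11 FPKM in 143B. LTB4R, a receptor for leukotriene B4, had 4.92 and 4.51 FPKM in JJ012 and 2.79 and 5.47 FPKM in 143B. The log2 differences of DGKQ and LTB4R in 143B were 0.73 and 0.77, below those of MT2A, MT1X and MT1E. The likeness rests on 4 libraries and is given as a description.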

How the data were processed

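RNA from suspension cultures of JJ012 and 143B, untreated or treated with melatonin, was sequenced in 1 library per condition. The authors deposited raw counts per gene and FPKM for the same genes in 1 table. The deposited FPKM are counts divided by exonic length and by the column total, rounded to 2 decimals. The submitters' processing notes name cutadapt 1.9.1, HISAT2 2.2.1, HTSeq 0.6.1, DESeq2 and hg38. The strand setting, the annotation release and the handling of reads matching several genes are not given in the sources used here.

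Members were taken by symbol. They and the gene lists were chosen with earlier results of these data known. Genes with at least 1 FPKM in 1 of the compared libraries were tested against a log2(FPKM + 1) difference of 0.58, the fold threshold of the study. Its false discovery rate needs replicates and was not applied, so no p-value is given. Ratios of CPM carry exact Clopper-Pearson 95% intervals (scipy 1.17.1). Intervals and the floor of 3 counts cover counting error only, since PCR reads without molecular identifiers are not independent molecules. Totals of 15889564 to 19218343 counts set this precision. The calculation was tested on simulated data.

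Named were all members, at most 2 tested genes per list and line with the largest difference, any list gene of at least 100 FPKM, and the 5 genes closest in pattern. Further list genes, BBS2, NUP93 and ENSG00000260823 were named after their values were seen. Alternatives were TMM (edgeR 4.0.16) and DESeq2 1.42.0 size factors, TPM, other pseudocounts, filters and thresholds, sums without single genes, and centring on all genes or on genes of similar exonic length. Coding sequences came from GENCODE 29 and promoters from RefSeq.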

Additional observations from a re-analysis of the deposited data

Results flagged for a closer look

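For 3 metallothioneins and the family sum, the melatonin library lay above its control in 143B and below it in JJ012. The log2 ratio of CPM of MT1E, the metallothionein with the largest increase in 143B, was 1.64 in 143B and -0.51 in JJ012. For MT1F it was 0.79 in 143B and -1.40 in JJ012. For MT2A it was 1.30 in 143B and -0.31 in JJ012. For the sum of the 8 metallothioneins it was 1.36 in 143B and -0.28 in JJ012. The lower sum in JJ012 depended on the reference. It was -0.026 with TPM and 0.019 less the median of genes of similar exonic length, both within counting error of no difference. That median was -0.30, close to the value of MT2A. The genes were chosen on the higher MT1E and the higher sum in 143B, so those 143B values are a description only. With 1 library per condition, the difference between the lines was not tested.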

How the results depend on the processing

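No paired analysis was possible because each group has 1 library, and no library could be left out. In 143B the log2 ratio of the metallothionein sum, 1.36, was 1.29 with TPM, 1.42 without MT2A and, in an alternative chosen after seeing the data, 1.48 without MT2A and MT1X. In JJ012 the sum, -0.28, was -0.20 with TMM, -0.026 with TPM, -0.23 without MT2A and -0.60 without MT2A and MT1X. Less the median of genes of similar exonic length it was 0.019. Between the controls the sum, -0.66, was -0.31 with TMM, -0.37 with DESeq2 size factors, -0.81 with FPKM and -0.42 with TPM. It was -0.21 without MT2A, -0.55 without MT1E, -0.54 with the other metallothionein genes and pseudogenes, and -1.58 without MT2A and MT1X. Less the median of genes of similar exonic length it was 0.036. The values 0.019 and 0.036 changed sign but were within counting error of no difference. Both take a median on the log2(FPKM + 1) scale off a log2 ratio of CPM. The cause of these shifts was not tested. Of the 5 members called in 143B, 3 were called with a filter of 5 FPKM, 3 with a threshold of 1, 4 with CPM, where MT1M was lost, and 4 when centred on the median gene, where MT1F was lost. For single members, 29 of the ratios moved by less than their counting interval and 11 by more under TMM or DESeq2 size factors, 10 of them between the controls. There the log2 ratio of MT1X, 0.39, was 0.73 with TMM and 0.68 with DESeq2 size factors, and that of MTF1, -0.51, was -0.16 and -0.21. In JJ012, TPM moved the median of all genes to 0.21. Depth limits MT1A, MT1G, MT1H and MT1M, which had at most 40 counts in a library.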
